A study of Mus musculus with 24 samples.

Results

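The genes described here encode the splicing factors named SR or hnRNP and the kinases that act on SR proteins. Members were all probes, control spots apart, whose name on the array began with Sfrs, Srsf, Hnrp or Hnrnp, or was that of a Clk or Srpk kinase or of Tra2a or Tra2b. The rule took 102 of 41174 probes, for 42 of 27623 genes or features, and used no measured value. By current names these were 9 SR genes (21 probes), 7 SR-related genes (18 probes), 20 hnRNP genes (45 probes) and 6 kinases (18 probes). No probe was named Tra2a. Of the 102 probes, 91 from 41 genes were bright enough to test and 11 were not, Hnrnpul2 among them with its only probe. Probes of a gene are kept apart and numbered by brightness, probe 1 being the brightest.

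RNA came from mouse embryonic fibroblasts of day 13.5 embryos from crosses of C57BL6 mice with 1 working copy of the gene for CHIP (Stub1), a ubiquitin ligase that works with heat shock chaperones. The 8 groups, with 3 arrays each, were heated CHIP null (-/-) cells at 43 °C, CHIP null controls at 37 °C, heated wildtype (+/+) cells at 43 °C and wildtype controls at 37 °C, each labelled 30 or 240 min. Every array set a Cy5-labelled sample against a Cy3-labelled reference RNA pooled from mouse sources, and a value is the log2 of Cy5 over Cy3. All groups share the C57BL6 background and that reference. The labels do not say whether the 3 arrays of a group came from separate cultures, so p-values measure the spread between these arrays, which may be technical.

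Stub1 lay between -2.43 and -1.72 on the 12 CHIP null arrays and between -0.24 and -0.01 on the 12 wildtype arrays. Between 32.9% and 48.6% of probes were well above background in Cy5, depending on the array. The 6 slides of 4 arrays fell into 2 scan sets, 1 for each time label, and no slide held both genotypes under 1 treatment. In the authors' value table each of the 24 columns was nearest to the scanner file labelled with the opposite time (correlation at least 0.998, against at most 0.9 for its own). Times below follow the scanner files, and comparisons between times also compare scan sets. The summed Cy5 signal of 18 macrophage probes was 5648 to 6254 in the wildtype controls labelled 30 min and 1271 to 2339 in the other groups of the series. Both wildtype groups labelled 30 min had Xist below background and Y-linked Ddx3y above it. Both CHIP null groups of that label and every group labelled 240 min, wildtype included, had the reverse. Fibroblast markers were bright in every group (summed Cy5 of 21 probes at least 34120), and on arrays labelled 30 min they summed to 65720 to 70250 in heated CHIP null and 34120 to 47240 in heated wildtype cells, and to 58690 to 69910 in CHIP null and 38320 to 50550 in wildtype controls.

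SR proteins carry arginine- and serine-rich tails and bind exons to recruit the spliceosome, while hnRNP proteins coat nascent RNA and often block splice site choice. Clk and Srpk kinases phosphorylate the SR tails, and heat shock is known to strip phosphate from SR proteins and to slow splicing. Many of these genes also make transcripts with a premature stop through alternative exons, so that probes to different parts of a gene can follow different transcripts. In RNA from mixed cells, fewer cells of a type and less RNA per cell cannot be told apart.

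The CHIP null controls labelled 30 min carried more RNA of most SR and many hnRNP genes than wildtype controls. Of 91 member probes, 36 were higher and 0 lower (calls are at a Benjamini-Hochberg adjusted p of 0.05 in limma). Over all 19358 probes tested, 13.7% were higher and 15.6% lower. The members' median difference was 0.14 on the log2 scale, against 0.00 over all probes. The SR family held 14 higher probes of 19 and the hnRNP family 19 of 41, while SR-related genes held 3 of 16 and kinases 0 of 15. Among bright probes, those above the median brightness of all tested probes, 31 of 65 members were higher, and of all such probes 18.3% were. These control groups also differed in Xist and Ddx3y and shared no slide. The part of those differences in the result was not tested.

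Among SR proteins, 8 of 9 genes had a higher probe and Srsf4 had none. Srsf7, whose protein binds exonic enhancers and takes part in mRNA export, was higher by 2 of 3 probes. Its probe 2 had log2 ratios of 1.02, 0.95 and 1.07 in CHIP null controls, against 0.59, 0.38 and 0.37 in wildtype controls. The groups did not overlap, and the difference was 0.57 ± 0.07 (SE, n = 3 each; limma adjusted p = 5.4e-07); probe 1 gave 0.43 ± 0.06 (adjusted p = 2.6e-06), while probe 3 read 0.05 and did not pass. Srsf2, a nuclear SR protein that binds exonic enhancers, was higher by all 4 probes, from 0.33 to 0.51. Its probe 1 read 0.29, 0.28 and 0.42 in CHIP null controls, against -0.21, -0.17 and -0.16 in wildtype controls (0.51 ± 0.06, limma adjusted p = 1.4e-07). Srsf1, the founding SR protein, was higher by both probes, 0.40 ± 0.06 and 0.19 ± 0.06. Srsf11 also rose by both probes (0.35 and 0.28), Srsf9 by its probe (0.33), Srsf6 by its probe 1 (0.25) and Srsf3, the smallest SR protein, by 0.21. Srsf5 rose by 0.18 at probe 2 and Srsf1 at probe 2, though the arrays of the groups overlapped at both probes. Srsf4 gave 0.15 and 0.16, which did not pass.

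Of 19 hnRNP genes, 10 had a higher probe. Hnrnpa3, an A/B-type hnRNP that shuttles between nucleus and cytoplasm, showed the largest difference. Its probe 1 read 0.25, 0.19 and 0.44 in CHIP null controls, against -0.23, -0.36 and -0.31 in wildtype controls. That is 0.59 ± 0.07 (limma adjusted p = 1.0e-07), and probes 2 and 3 gave 0.48 and 0.49, while probe 4 read -0.11 and did not pass. Hnrnpa1, which binds silencer elements and opposes SR proteins at many exons, was higher by all 4 probes (0.17 to 0.58). Its probe 1 read 0.83, 0.76 and 0.81 in CHIP null controls, against 0.29, 0.33 and 0.06 in wildtype controls, with no overlap (0.58 ± 0.08, limma adjusted p = 5.1e-07). Hnrnpd, known as AUF1 for binding AU-rich elements, rose by 0.46 ± 0.07 and 0.25 ± 0.06. Hnrnpab rose by 3 of 4 probes (0.22 to 0.42), Hnrnpc, which coats uridine-rich introns, by both (0.28 and 0.18), Hnrnpu by probe 1 (0.44) and Hnrnph1 by its tested probe (0.40). Hnrnpm rose by 0.31, Hnrnpdl by 0.26 at probe 2 and Hnrnpf by 0.21 at probe 2. Hnrnpk, Hnrnpl, Hnrnpll, Hnrnpr, Hnrnpa0, Hnrnpa2b1, Hnrnph2, Hnrnph3 and Hnrnpul1 had no called probe.

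Tra2b and Scaf11 were the SR-related genes with a higher probe: Tra2b, which binds GA-rich exonic enhancers, rose by 0.28 ± 0.07 at probe 1, and Scaf11 by 0.23 and 0.20. Among kinases the brightest probes differed by 0.18 (Srpk1), 0.11 (Clk4), 0.05 (Clk3), -0.10 (Clk1), -0.11 (Clk2) and -0.13 (Srpk2), and none passed. The difference between the families was not tested. Leaving out 1 array ended the calls of Srsf3, Srsf5, Scaf11, Hnrnpc and Hnrnpf, of probe 2 of Srsf1 and of Hnrnpab, and of probes 2 and 4 of Hnrnpa1 (highest limma adjusted p between 0.061 and 0.29).

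**Figure D1:**
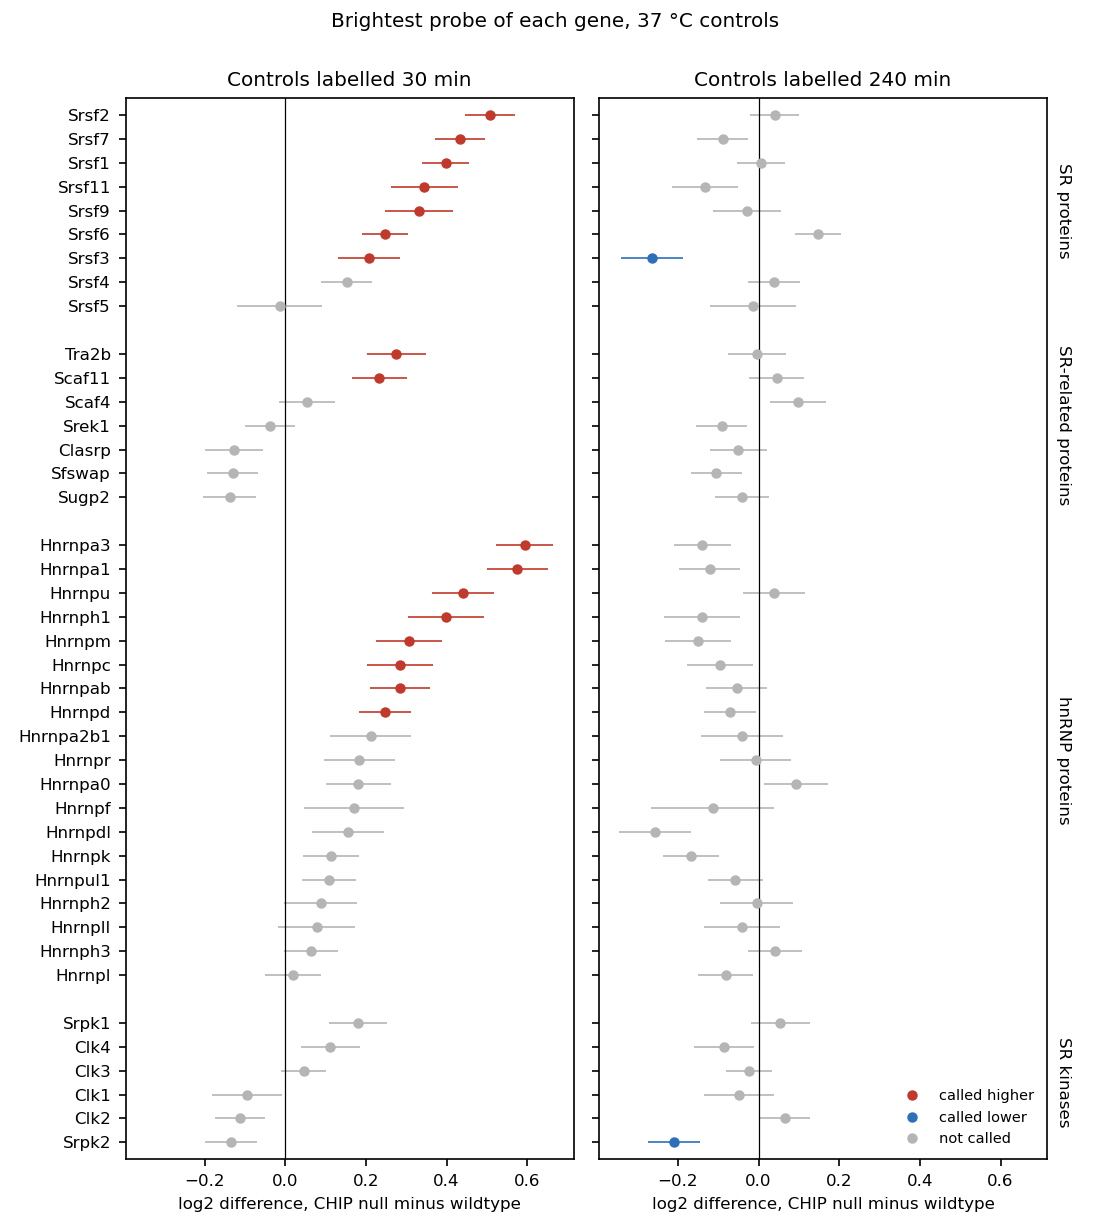
Log2 difference of CHIP null minus wildtype controls (horizontal axis) for the brightest probe of each of 41 genes, grouped by family, on arrays labelled 30 min (left) and 240 min (right). Points are fitted differences with SE (n = 3 arrays a group), red where called higher, blue where called lower (n = 2 in each group for Hnrnpf at 240 min). At 30 min most SR genes and the top hnRNP genes lie right of 0, and at 240 min Srsf3 and Srpk2 are the called points, both lower.

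Among heated cells labelled 30 min, 9 of 19 SR and 10 of 41 hnRNP probes were higher in the CHIP null. Of 91 members, 22 were higher and 2 lower in heated CHIP null than in heated wildtype cells (12.3% and 10.6% of all probes), with a median of 0.08 against 0.02 over all probes. Srsf7 differed by 0.54 ± 0.07 at probe 2 and 0.48 ± 0.06 at probe 1 (limma adjusted p = 1.7e-06 and 5.9e-07). Its probe 1 read 0.67, 0.75 and 0.82 in heated CHIP null cells, against 0.27, 0.22 and 0.32 in heated wildtype cells. Srsf2 probe 1 differed by 0.44 ± 0.06, Hnrnpab probe 3 by 0.44 ± 0.06 and Srsf1 probe 1 by 0.28 ± 0.06. Hnrnpab probe 1 differed by 0.29 ± 0.08, Hnrnpa1 probe 1 by 0.34 ± 0.08 and Srsf9 by 0.31 ± 0.08, but with slides as a block the values of Hnrnpa1 and Srsf9 were 0.09 and -0.07. The 2 lower probes were Clasrp, an SR-related partner of Clk4 (-0.40 ± 0.07, limma adjusted p = 7.0e-05), and Srpk2 probe 1 (-0.31 ± 0.06, adjusted p = 0.00051). Srpk2 probe 1 read -0.09, 0.02 and 0.07 in heated CHIP null cells, against 0.30, 0.22 and 0.39 in heated wildtype cells. Of 15 kinase probes, Srpk1 probe 1 was called higher in this comparison and Srpk2 probe 1 lower. The Srpk1 call was lost with median centring, with Feature Extraction ratios, without the filter on dim probes and with slides as a block.

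In these heated cells the macrophage probes had a summed Cy5 signal of 1530 to 1699 in CHIP null and 2198 to 2339 in wildtype cells, with 4 of 12 tested probes lower, while 3 of 5 neural probes were lower (median -0.67) and 10 of 17 fibroblast probes higher (median 0.26). In the controls labelled 30 min the sums were 1762 to 1834 in CHIP null and 5648 to 6254 in wildtype cells, with 12 of 12 lower and a median of -0.46; 5 of 5 neural probes were also lower there (median -0.60) and 8 of 17 fibroblast probes higher and 2 lower (median 0.12). Their part in the results on SR and hnRNP genes was not tested. With slides as a block, which links the genotypes only through a chain of shared slides, 21 members were higher and 0 lower in the controls, and 15 of the 36 calls were kept. Kept were probe 1 of Hnrnpa3 (0.60), Hnrnpa1 (0.50), Hnrnph1 (0.71), Hnrnpm (0.55), Hnrnpu (0.46), Srsf1 (0.47), Srsf7 (0.56) and Tra2b (0.41), all 4 probes of Srsf2 (0.43 to 0.58), probe 3 of Hnrnpa1 (0.48) and probes 2 and 3 of Hnrnpab (0.40 and 0.55). Srsf9 turned to -0.05 in that fit, and probe 2 of Srsf7 gave 0.37 (limma adjusted p = 0.091). In the heated cells the block left 6 higher and 1 lower, and median centring 4 higher and 2 lower, while Feature Extraction ratios gave 24 higher and 8 lower. Leaving out replicate 2 of the heated wildtype cells labelled 30 min left 11 higher and 2 lower.

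On arrays labelled 240 min the shares of members called were below those of all probes in both directions. Of 91 members, 0 were higher and 4 lower in CHIP null controls (4.14% and 6.45% of all probes), and 0 higher and 5 lower in heated CHIP null cells (3.78% and 6.3%). Among markers, 6 of 12 macrophage, 6 of 7 skeletal muscle and 5 of 8 epithelial probes were lower in CHIP null controls and 9 of 17 fibroblast probes higher, with 5, 4 and 4 lower and 9 higher in heated cells; their part in these calls was not tested. In controls the lower probes were Hnrnpa3 probe 2 (-0.28 ± 0.08), Sfswap probe 3 (-0.27 ± 0.07), Srsf3 (-0.26 ± 0.08), and Srpk2 probe 1 (-0.21 ± 0.06). In heated cells they were Hnrnpa3 probes 2 and 1 (-0.30 and -0.28), Srsf11 probe 1 (-0.27), Hnrnpa1 probe 2 (-0.26) and Sfswap probe 1 (-0.21). Slides as a block, Feature Extraction ratios and, in controls, median centring left 0 of these 9 calls, and leaving out 1 array at a time left 1 to 4 calls in controls (1 without wildtype control replicate 1 or CHIP null control replicate 2) and 0 to 13 in heated cells (0 without heated wildtype replicate 1, and 1 higher with 12 lower without heated CHIP null replicate 1).

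The change in the genotype difference between time labels was itself tested, a comparison added after the data were seen. In controls it was negative for 27 of 91 members and positive for 0 (7.39% and 7.1% of all probes), with 11 SR, 15 hnRNP and 1 SR-related probe among the 27. Hnrnpa3 probe 2 gave -0.75 ± 0.11, Hnrnpa3 probe 1 -0.73 ± 0.10, Hnrnpa1 probe 1 -0.70 ± 0.11 and Srsf7 probe 2 -0.61 ± 0.11. In heated cells it was negative for 18 and positive for 2 (8.18% and 5.67%), with Srsf7 probe 2 at -0.63 ± 0.11 and Srsf2 probe 1 at -0.53 ± 0.09. Slides as a block left 7 negative calls in controls and 4 in heated cells. Of 91 members, 61 had their lowest control mean in wildtype cells labelled 30 min, as did 37% of all probes. Among SR and hnRNP probes, the families with most of the higher calls in controls of that label, it was 51 of 60. Scan set, culture and time label cannot be told apart in that order. Wildtype cells labelled 30 min also differed from those labelled 240 min in Xist and Ddx3y, and the part of that difference was not tested.

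**Figure D2:**
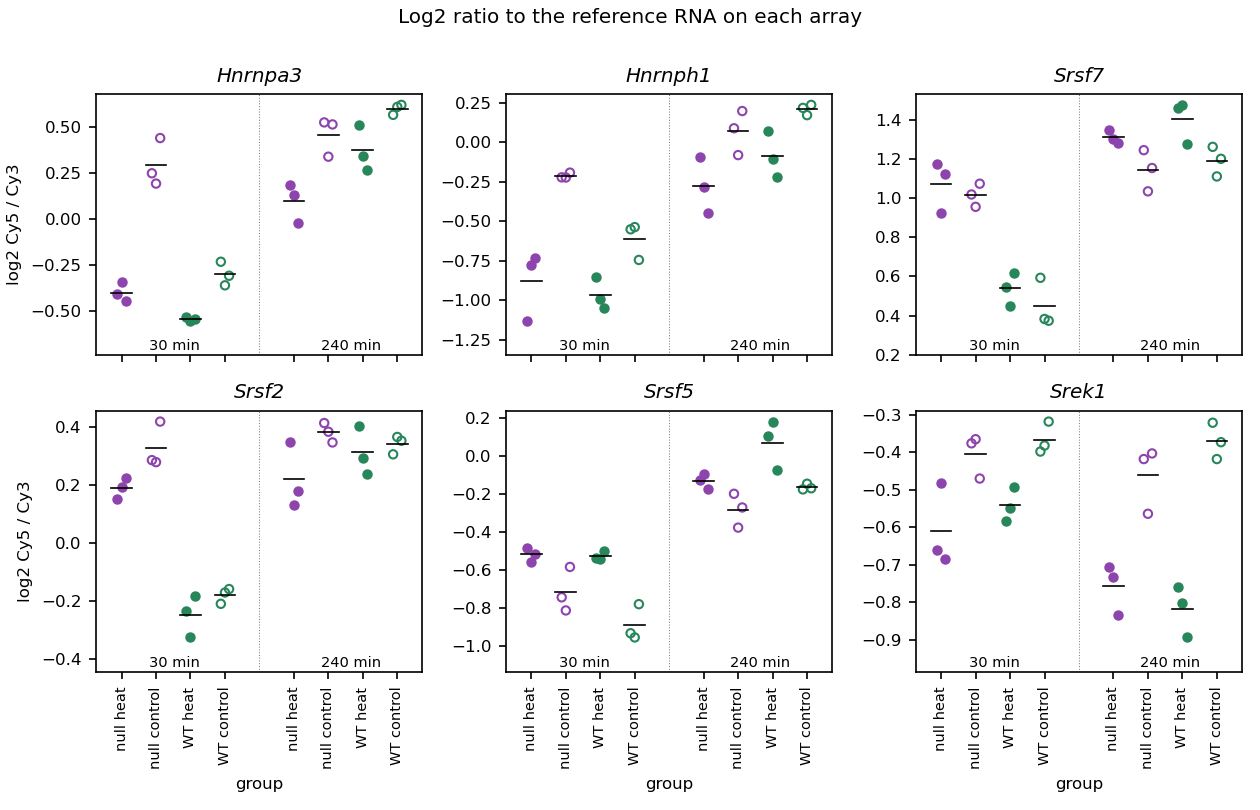
Log2 Cy5 over Cy3 on every array (vertical axis) for Hnrnpa3 probe 1, Hnrnph1 probe 1, Srsf7 probe 2, Srsf2 probe 1, Srsf5 probe 2 and Srek1 probe 1, by group (horizontal axis; null, CHIP null; WT, wildtype). Filled points are heated and open points control arrays, and lines are means of 3. At 30 min both CHIP null groups of Srsf7 and Srsf2 lie above both wildtype groups, and Srek1 is lower in heated than in control cells in each pair.

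More members were called lower than higher after heat, hnRNP probes most of all at 30 min. In CHIP null cells labelled 30 min, 5 of 91 members were higher and 27 lower after heat (18.8% and 11.9% of all probes). In wildtype cells labelled 30 min, 2 were higher and 8 lower (5.22% and 5.99%). In CHIP null cells labelled 240 min, 11 were higher and 23 lower (20.9% and 14.2%), and in wildtype cells 9 were higher and 17 lower (16.3% and 12.2%). Members' medians were -0.06, -0.02, -0.01 and -0.01 in that order, against 0.02, 0.01, 0.06 and 0.05 over all probes. Among bright probes, 40% of 65 members were lower in the CHIP null at 30 min, against 16.4% of all such probes. In the wildtype at 30 min the shares were close, 12.3% and 10.4%. At 240 min they were 33.8% and 18.5% in the CHIP null, and 26.2% and 16.1% in the wildtype. Changes were small: 2 member calls exceeded 1.5-fold in the heated CHIP null labelled 30 min, and 0 in each of the other 3 heat comparisons. All 4 comparisons use their own controls. Each control group also serves in a genotype comparison above, so the heat and genotype results share those arrays and are not independent.

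Median centring instead of loess moved the median of all probes to -0.15 and -0.08 (CHIP null and wildtype, 30 min) and to -0.17 and -0.04 (240 min). It left 0 higher members and 60, 2, 47 and 12 lower, and the members' medians were -0.40, -0.12, -0.29 and -0.09, below those of all probes in each case. The share of member calls that were rises was 15.6%, 20%, 32.4% and 34.6% with loess and 0% with centring, so a rise below is one relative to the other probes of similar brightness. Within the single slide that each heat comparison shares, heated CHIP null cells were lower for 24 members at 30 min and 16 at 240 min (0 and 2 higher), and heated wildtype cells for 2 and 1 (0 and 1 higher). These slides set 1 array against 3, and the spread is pooled over all groups. Feature Extraction ratios gave 3 higher and 19 lower in the CHIP null and 4 higher and 14 lower in the wildtype at 240 min. In the CHIP null at 30 min, leaving out single arrays gave 2 to 6 higher and 22 to 27 lower. In the wildtype at 30 min, leaving out control replicate 1 left 2 higher and 3 lower. In the CHIP null at 240 min, leaving out heated replicate 2 or control replicate 1 left 6 and 15, and leaving out heated replicate 3 left 9 and 13. In the wildtype at 240 min, leaving out heated replicate 2 left 4 and 12, heated replicate 3 left 10 and 9 and control replicate 3 left 8 and 10.

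In the heated CHIP null cells labelled 30 min, 13 of 19 hnRNP genes had a lower probe and 0 a higher one (19 of 41 probes). Hnrnpa3 fell most. Its probe 1 read -0.41, -0.34 and -0.45 in heated CHIP null cells, against 0.25, 0.19 and 0.44 in CHIP null controls (-0.69 ± 0.07, limma adjusted p = 2.1e-07). The gap between the groups was wider than the spread within either, and within the shared slide the change was -0.70. Hnrnph1, which binds G-runs near splice sites, read -1.13, -0.78 and -0.73 in heated CHIP null cells, against -0.22, -0.22 and -0.19 in CHIP null controls (-0.67 ± 0.09, limma adjusted p = 1.2e-05). Its X-linked relative Hnrnph2 fell by 0.49 ± 0.09. Hnrnpa2b1, which also carries RNA along neurites, fell by 0.50 ± 0.10 at probe 1 and Hnrnpr by 0.47 ± 0.09. Hnrnpk, a poly-C binding protein, fell by 0.45 ± 0.09 at probe 2. Hnrnpf fell by 0.44 ± 0.12 at probe 1, with -0.11 and no call at probe 2. Hnrnpu, a nuclear scaffold protein, fell by 0.43 ± 0.08 at probe 1 and by 0.20 at probe 2. Hnrnpll fell at both probes (0.41 and 0.36), Hnrnpd at both (0.39 and 0.30) and Hnrnpm by 0.32. The call for Hnrnpf was lost without heated CHIP null replicate 1 (limma adjusted p = 0.051), while those of Hnrnpa3, Hnrnph1, Hnrnph2, Hnrnpa2b1, Hnrnpr, Hnrnpk and Hnrnpu were kept without any 1 array.

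In wildtype cells labelled 30 min, 6 hnRNP probes were lower after heat. In the same comparison 9 of 12 macrophage probes were lower, with a summed Cy5 signal of 2198 to 2339 in heated cells and 5648 to 6254 in controls, and their part in the result was not tested. Hnrnpa3 probe 1 read -0.53, -0.55 and -0.54 in heated wildtype cells, against -0.23, -0.36 and -0.31 in wildtype controls (-0.24 ± 0.07, limma adjusted p = 0.025). Hnrnph1 read -0.86, -0.99 and -1.05 in heated wildtype cells, against -0.55, -0.54 and -0.74 in wildtype controls (-0.36 ± 0.09, adjusted p = 0.013 by limma). Hnrnpab fell by 0.29 and 0.28 at probes 1 and 2, Hnrnpk by 0.32 at probe 2, Hnrnpll by 0.35 at probe 2 and the SR gene Srsf9 by 0.34. None of these calls was kept within the shared slide, where the values ran from -0.15 (Srsf9) to -0.35 (Hnrnpk), and with median centring Hnrnpll was the one kept. Without 1 array at a time Hnrnpll and Hnrnpab probe 2 were kept, and the others were lost at least once. Tested as a difference, the heat changes of the genotypes at 30 min were called apart for Hnrnpa3 probe 1 (-0.45 ± 0.10 for CHIP null minus wildtype, limma adjusted p = 0.049) and for no other member (0.186% of all probes positive and 0.0258% negative). That call was lost with median centring, with an offset of 10, without the filter on dim probes and without any 1 of 9 of the 12 arrays concerned. At 240 min limma called 0 members and 0% of all probes apart, and 2 members had an unadjusted p under 0.05.

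At 240 min, 13 of 41 hnRNP probes were lower and 4 higher in CHIP null cells, and 11 were lower and 6 higher in wildtype cells. Of 16 SR-related probes, 6 were lower and 2 higher in CHIP null cells, and 5 were lower and 0 higher in wildtype cells. Hnrnpll, an hnRNP L relative known for the splicing of Cd45 in T cells, fell in CHIP null cells by 0.56 ± 0.09 at probe 1 and 0.35 ± 0.07 at probe 2. Its probe 2 read 0.71, 0.56 and 0.42 in heated CHIP null cells, against 0.90, 0.93 and 0.92 in CHIP null controls. In wildtype cells it fell by 0.53 ± 0.09 and 0.27 ± 0.07. Hnrnpf probe 1 fell by 0.47 ± 0.14 in CHIP null cells, where arrays of the groups overlapped, and by 0.51 ± 0.14 in wildtype cells. For this probe 1 control spot was removed as an outlier in each genotype (n = 2). Hnrnpf probe 2 gave -0.15 and -0.065, neither called. It differed from probe 1 in both genotypes (0.34 ± 0.12 and 0.48 ± 0.12, CHIP null before wildtype). Hnrnpr fell by 0.47 and 0.30, Hnrnpa2b1 probe 1 by 0.41 and 0.34, Hnrnpk probe 2 by 0.33 (with overlap) and 0.35, and Hnrnph1 by 0.34 and 0.29, CHIP null before wildtype. The shared slide rests on control replicate 3 alone in the CHIP null, where these probes apart from Hnrnpf read -0.64 to -0.35 and were called, and on heated replicate 1 alone in the wildtype, where they read -0.34 to -0.14 and were not. For Hnrnpf the control spot on the CHIP null slide was the one removed. Hnrnpdl fell by 0.33 at probe 1 in the wildtype, while its probes 2 and 3 gave 0.07 and -0.01. Both of these differed from probe 1 (0.40 ± 0.09 and 0.32 ± 0.09). Hnrnpa3 probe 4 fell by 0.32 in the wildtype. Some hnRNP probes rose relative to loess: Hnrnpl, a binder of CA repeats, by 0.36 ± 0.07 in CHIP null and 0.21 ± 0.07 in wildtype cells, Hnrnpc probe 1 by 0.27 and 0.30, and Hnrnpa1 probe 4 by 0.21 and 0.24, but with median centring none was called and Hnrnpc (-0.05) and Hnrnpa1 probe 4 (-0.06) turned negative in the CHIP null. Hnrnpa1 also rose in the wildtype at probes 3 and 2 (0.34 and 0.23).

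Across all 4 heat comparisons, 5 of 91 probes, from 5 genes, were lower each time (3.03% of all probes were), 0 were higher each time (1.98%), 37 were called in none (44.9%), and 0 were higher in 1 and lower in another (0.661%). The 5 were Hnrnpa3 probe 1, Hnrnph1 probe 1, Hnrnpll probe 2, Hnrnpk probe 2 and Sfswap probe 1. Sfswap, the counterpart of the fly splicing regulator suppressor of white-apricot, read -1.11, -0.86 and -0.85 in heated CHIP null cells labelled 30 min, against -0.72, -0.72 and -0.75 in their controls (-0.21 ± 0.06). In wildtype cells of that label it fell by 0.26 ± 0.06, and within the shared slide by 0.31 (limma adjusted p = 0.026). At 240 min it fell by 0.31 in CHIP null and 0.21 in wildtype cells. Hnrnpll probe 2 kept its call in all 4 comparisons without any 1 array.

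**Figure D3:**
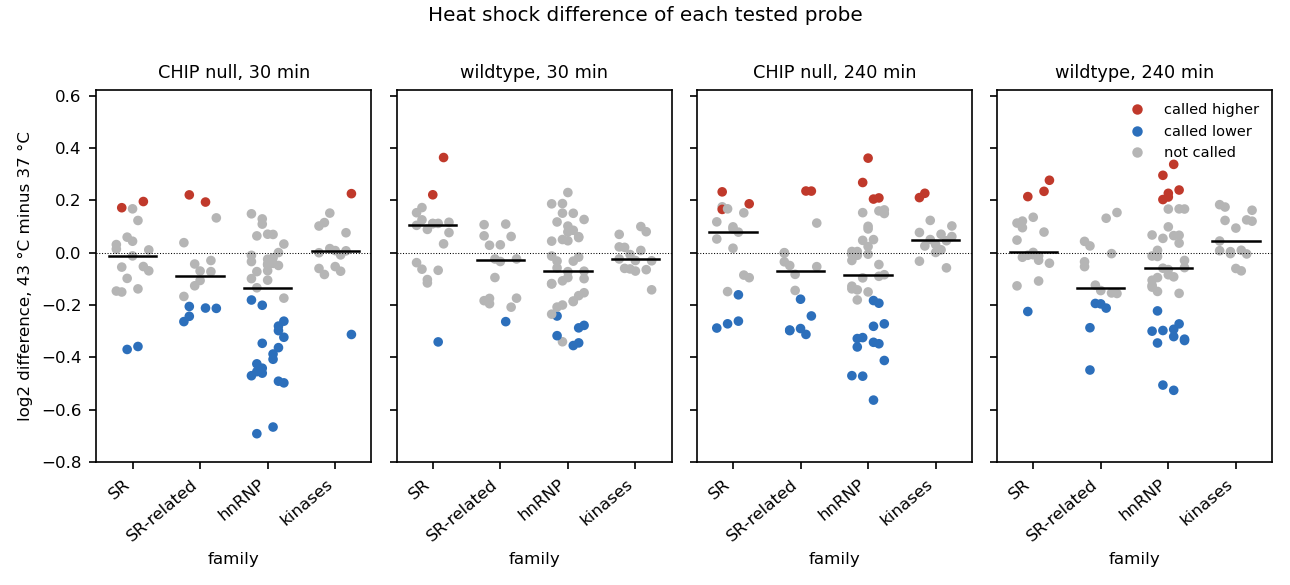
Log2 difference of heated minus control cells (vertical axis) for each of 91 tested probes by family (horizontal axis), in CHIP null and wildtype cells at 30 and 240 min. Points are probes, red where called higher and blue where called lower, and bars are family medians. The lowest points are hnRNP probes in all 4 panels, down to -0.69, and kinase probes lie between -0.31 and 0.23.

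SR probes were called in both directions after heat. In CHIP null cells 2 SR probes of 19 were higher and 2 lower at 30 min (18.8% and 11.9% of all probes), and 3 higher and 4 lower at 240 min (20.9% and 14.2%). In wildtype cells 2 were higher and 1 lower at 30 min (5.22% and 5.99%), and 3 higher and 1 lower at 240 min (16.3% and 12.2%). Srsf5, described in rat liver cells as induced by insulin, rose at probe 2. It read -0.48, -0.56 and -0.52 in heated CHIP null cells labelled 30 min, against -0.74, -0.81 and -0.58 in their controls (0.20 ± 0.07, limma adjusted p = 0.028). In wildtype cells of that label it read -0.54, -0.54 and -0.50 after heat, against -0.93, -0.95 and -0.78 in controls (0.36 ± 0.07, adjusted p = 0.00086 by limma). At 240 min it rose by 0.23 ± 0.07 in wildtype cells. These rises were not called with median centring, which gave -0.22 in the CHIP null at 30 min and 0.21 in the wildtype, and not within the shared slide (0.23 and 0.25). Srsf11 probe 1 fell by 0.37 and Srsf9 by 0.36 in the heated CHIP null labelled 30 min, and in the CHIP null at 240 min Srsf6 probe 2 fell by 0.29, Srsf4 probe 1 by 0.27 and Srsf9 by 0.26, the last with 1 heated spot removed as an outlier (n = 2). Srsf2 probe 3 rose by 0.28 and Srsf7 probe 2 by 0.21 in the wildtype at 240 min, Srsf1 probe 2 by 0.23 in the CHIP null, Srsf11 probe 2 by 0.22 in the wildtype at 30 min and Srsf7 probe 1 by 0.17 in the CHIP null at 30 min, where the groups overlapped and median centring gave -0.29.

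Among SR-related genes in wildtype cells labelled 240 min, Srek1, which works with other SR proteins at weak splice sites, fell most, while Sfswap fell by more in the CHIP null. Its probe 1 read -0.71, -0.73 and -0.83 in heated CHIP null cells labelled 240 min, against -0.42, -0.56 and -0.40 in their controls (-0.30 ± 0.06, limma adjusted p = 0.00079). Heated wildtype cells read -0.76, -0.80 and -0.89, against -0.32, -0.42 and -0.37 in wildtype controls (-0.45 ± 0.06, limma adjusted p = 7.7e-06). The call of Srek1 probe 1 in wildtype cells was kept with median centring and without any 1 array, and within the shared slide its value was -0.39. Srek1 probes 2 and 3 fell less in wildtype cells, with -0.19 (called) and -0.15 (not called). Both differed from probe 1 there (0.25 ± 0.09 and 0.30 ± 0.08). Scaf11 fell by 0.30 and Scaf4 by 0.29 in the CHIP null at 240 min, and by 0.29 and 0.20 in the wildtype. Sugp2 rose by 2 of 3 probes in the CHIP null at 240 min (0.24 and 0.24, with 0.11 at probe 3), but probes 1 and 2 gave -0.05 and -0.03 with median centring, and its probe 1 rose by 0.19 in the CHIP null at 30 min (-0.03 with median centring).

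In wildtype cells 0 of 15 kinase probes were called after heat at either time, with values from -0.14 to 0.18 (5.22% of all probes were higher and 5.99% lower at 30 min, and 16.3% and 12.2% at 240 min). In CHIP null cells labelled 30 min, Clk4 probe 1 fell by 0.31 ± 0.07 (limma adjusted p = 0.0020), while its probes 2 and 3 gave -0.06 and -0.08, and Srpk2 probe 3 rose by 0.23. At 240 min Clk1 probe 2 rose by 0.23 ± 0.07 and Clk4 probe 2, with overlap, by 0.21 ± 0.07, but median centring gave -0.12 and -0.05. The brightest probes of Clk1, Clk2, Clk3 and Srpk1 stayed between -0.06 and 0.15 in all 4 comparisons.

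Heat shock genes carry arrays of inverted GAA units bound by the factor HSF1, so the RefSeq promoters of members (GRCm38.p6, 300 bases around each start) were searched for GAANNTTCNNGAA and, on the other strand, TTCNNGAANNTTC. Of 56 promoters of 39 member genes, 3 held this 3-unit form (5.36%), in Hnrnpa2b1 and Tra2b, against 0.603% of 32851 promoters of all genes. The shorter GAANNTTC or TTCNNGAA, which the longer forms contain, was in 10.7% of member promoters and 15.1% of all. The windows below are those of both holders and of Hnrnpa3, the gene with the largest fall after heat, which had neither form. Capitals mark the match.
Hnrnpa2b1, chr6:51469796-51470095, minus strand: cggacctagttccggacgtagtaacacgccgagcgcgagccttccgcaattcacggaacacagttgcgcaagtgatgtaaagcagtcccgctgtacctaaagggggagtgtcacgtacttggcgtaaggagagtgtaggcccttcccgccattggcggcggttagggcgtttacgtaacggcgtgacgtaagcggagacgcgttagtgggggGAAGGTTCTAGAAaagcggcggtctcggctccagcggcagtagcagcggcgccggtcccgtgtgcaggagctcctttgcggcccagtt
Tra2b, chr16:22265956-22266255, minus strand: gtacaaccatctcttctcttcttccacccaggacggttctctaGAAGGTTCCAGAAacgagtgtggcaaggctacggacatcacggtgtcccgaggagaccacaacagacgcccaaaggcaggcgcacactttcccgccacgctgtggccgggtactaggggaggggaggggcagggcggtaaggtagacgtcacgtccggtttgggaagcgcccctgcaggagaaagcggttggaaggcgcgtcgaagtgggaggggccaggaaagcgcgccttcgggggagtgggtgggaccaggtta
Hnrnpa3, chr2:75659009-75659308, plus strand: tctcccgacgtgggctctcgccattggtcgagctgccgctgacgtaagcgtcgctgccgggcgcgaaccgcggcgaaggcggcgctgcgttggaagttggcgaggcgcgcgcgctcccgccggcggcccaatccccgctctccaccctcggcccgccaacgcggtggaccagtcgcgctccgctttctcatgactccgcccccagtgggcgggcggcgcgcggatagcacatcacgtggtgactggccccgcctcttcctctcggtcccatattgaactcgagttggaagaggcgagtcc
The array does not measure binding, and a match is a description of these letters only. Hnrnpa2b1 has a second annotated start whose overlapping window holds the same match, so that match is counted more than once in the 5.36%.

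Some probes of the same gene changed by different amounts. For 31 genes with at least 2 tested probes, each dimmer probe was set against the gene's brightest probe on the same array, which gave 50 differences. In the heated CHIP null labelled 30 min, 15 of 50 differed from the brightest probe in their heat change (15.2% of 5831 such differences over all genes). In the wildtype of that label it was 5 (9.36%), in the CHIP null at 240 min 10 (18.3%) and in the wildtype at 240 min 8 (16.9%). In these last comparisons the member counts were near the shares over all genes.

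Hnrnpa3 showed it most. In the heated CHIP null labelled 30 min its 4 probes changed by -0.69, -0.46, -0.05 and 0.07 from brightest to dimmest, and all 3 dimmer probes differed from probe 1 (0.23 ± 0.08, 0.65 ± 0.11 and 0.76 ± 0.10, limma adjusted p = 0.038, 0.00017 and 2.1e-06). Hnrnpa1 fell by 0.35 at probe 1, with -0.07, -0.04 and 0.00 at the others, and all 3 differed. Hnrnpa2b1 gave -0.50 at probe 1 and -0.03 at probe 2 (difference 0.46 ± 0.09). Tra2b was called both ways, -0.26 ± 0.07 at probe 1 and 0.22 ± 0.08 at probe 2, a difference of 0.48 ± 0.09 (limma adjusted p = 0.00037). With median centring probe 2 gave -0.03, and since no member was called higher in any heat comparison there, no gene was called both ways. Srsf11 gave -0.37 at probe 1 and 0.17 at probe 2 (0.54 ± 0.10). Of the 15 called differences, 14 were positive, the dimmer probe lying above the brightest, and Hnrnpk was the exception: its probe 2 fell by 0.45, against 0.18 at probe 1. The members' median difference was 0.09, against 0.02 over all genes.

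At 240 min Srsf2 was called both ways in the CHIP null, -0.16 at probe 1, with overlap, and 0.19 at probe 3 (difference 0.35 ± 0.08, limma adjusted p = 0.0018). Its probe 3 read 0.76, 0.71 and 0.61 in heated CHIP null cells, against 0.54, 0.52 and 0.45 in their controls, without overlap. With median centring 0 of the 11 higher calls of this comparison were kept and 9 turned negative, Srsf2 probe 3 among them. Hnrnpk was called both ways in the wildtype, -0.35 at probe 2 and 0.20 at probe 3. Srsf4 probe 2 stayed at 0.09 in the CHIP null while probe 1 fell by 0.27 (0.36 ± 0.08). The offset of 50 added to both channels draws dim ratios towards 0. An offset of 10 left 2, 3 and 3 called differences in the wildtype at 30 min, the CHIP null at 240 min and the wildtype at 240 min, and Feature Extraction ratios left 2, 1 and 1. In the CHIP null at 30 min the count was 15 under both and 12 with slides as a block, and it was 5 without CHIP null control replicate 1, 8 without control replicate 2 and 9 without heated replicate 1 or 2. Leaving out single arrays gave 1 to 5, 2 to 12 and 5 to 10 in the other comparisons in the order above, the fewest without heated replicate 1 or 2 in the wildtype at 30 min, heated replicate 3 in the CHIP null at 240 min and heated replicate 2 or 3 in the wildtype at 240 min. No probe sequences were given, so the transcripts that each probe reads are not named.

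**Figure D4:**
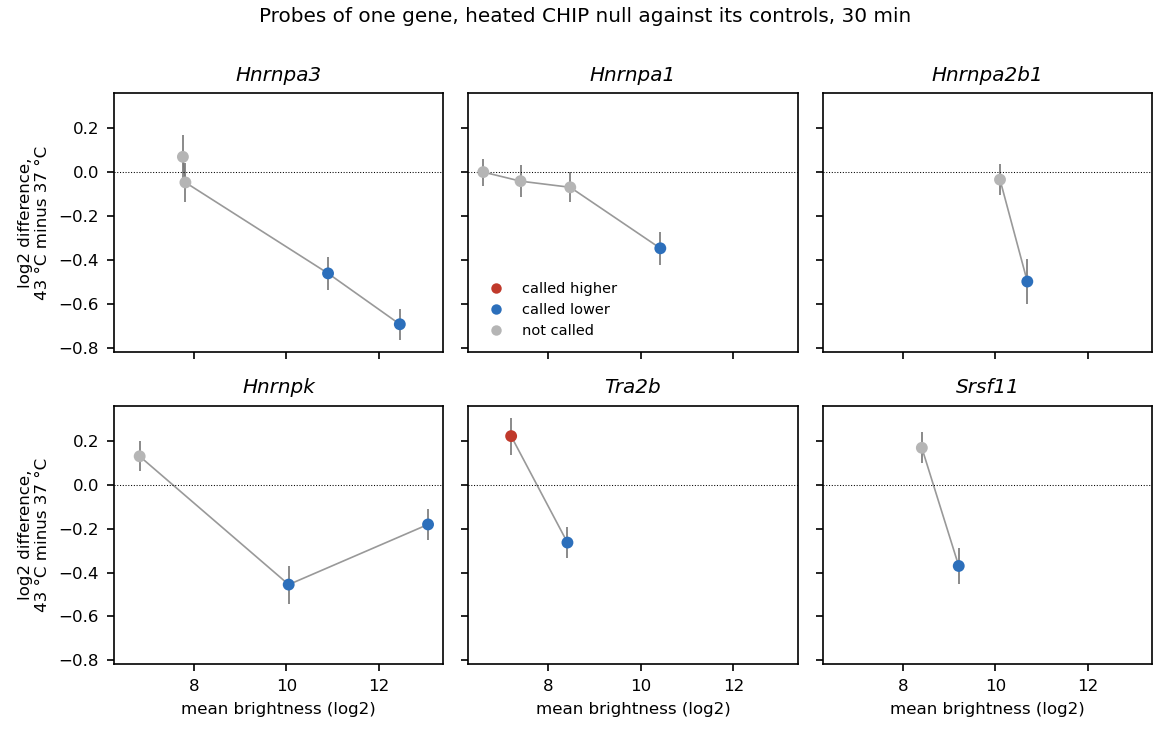
Log2 difference of heated minus control CHIP null cells labelled 30 min (vertical axis) against mean brightness (horizontal axis, log2) for each tested probe of 6 genes. Points are probes with SE, blue where called lower, red where called higher, grey where not called. The brightest probe is the lowest point in 5 of the 6 genes, and in Hnrnpk it is probe 2.

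Changes with heat were also compared between time labels. In the CHIP null 3 members were higher at 240 than at 30 min (0.925% of all probes were positive and 0.997% negative), all hnRNP genes. Hnrnph2 read -1.07, -0.63 and -0.52 in heated and -0.27, -0.30 and -0.19 in control cells labelled 30 min, and 0.21, 0.08 and 0.02 in heated and 0.00, -0.19 and 0.03 in control cells labelled 240 min. The heated arrays lay below the controls at 30 min (-0.49) and all above 2 of the 3 controls at 240 min (0.16, not called), a difference of 0.65 ± 0.13 (limma adjusted p = 0.011). Hnrnpm probe 1 differed by 0.49 ± 0.12, with 1 value of the heated group at 240 min removed as an outlier spot, and Hnrnpa1 probe 1 by 0.39 ± 0.11. Without CHIP null control replicate 1, heated replicate 1 or heated replicate 2 of 30 min, or control or heated replicate 2 of 240 min, 1 member was called in this direction. In the wildtype limma called 0 members (0.527% and 0.444% of all probes), and 15 had an unadjusted p under 0.05.

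Other parts of the splicing machinery were read from lists of genes. Core snRNP proteins, which form the small nuclear particles, had 20 of 30 probes higher and 0 lower in CHIP null than in wildtype controls labelled 30 min, with a median of 0.22 against 0.00 over all probes, led by Lsm5 (0.51 ± 0.08) and Snrpd1 (0.50 ± 0.06). In heated cells of that label 17 were higher and 0 lower in the CHIP null, and in controls labelled 240 min 0 were higher and 2 lower. With heat, 7 probes were higher and 1 lower in the CHIP null at 30 min, 6 and 0 in the wildtype at 30 min, 10 and 0 in the CHIP null at 240 min and 12 and 0 in the wildtype at 240 min, where 18.8%, 5.22%, 20.9% and 16.3% of all probes were higher. Snrpd2 rose by 0.42 ± 0.05 in the heated CHIP null at 240 min. Over all probes 13.7% were higher and 15.6% lower in CHIP null controls labelled 30 min. Factors of the 3' splice site were higher for 10 of 25 probes in CHIP null controls labelled 30 min and lower for 0, with Sf3a1 at 0.47 ± 0.06. Exon junction and decay genes were higher for 8 of 25 and lower for 0, led by Magoh (0.45 ± 0.06). Tri-snRNP and catalytic genes held 10 higher and 1 lower of 42. SR-related matrix and kinase partners held 7 and 0 of 44, a share of higher probes near that of all probes, with the matrix protein Srrm2 at 0.39 ± 0.08.

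Other splicing regulators, neither SR nor hnRNP by name, changed both ways: 18 higher and 8 lower of 83 in CHIP null controls labelled 30 min, where Qk fell by 0.97 ± 0.07, Celf2 by 0.77 ± 0.11 and Elavl1 by 0.51 ± 0.07. With heat this list held more lower than higher calls, 24 lower and 9 higher in the CHIP null at 30 min, 13 and 2 in the wildtype at 30 min, 25 and 10 in the CHIP null at 240 min and 26 and 11 in the wildtype at 240 min, where 11.9%, 5.99%, 14.2% and 12.2% of all probes were lower. Mbnl1 fell by 0.76 ± 0.10 in the CHIP null and 0.66 ± 0.10 in the wildtype at 240 min, and Syncrip, an hnRNP R relative, by 0.65 ± 0.10 in the wildtype.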

How the data were processed

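RNA of 24 samples was measured on 2-colour Agilent arrays, and spot intensities, flags and log10 ratios were deposited by the authors as Feature Extraction 9.1.3.1 output, per the file headers. Intensities are linear and not normalized, and the log10 ratios were background-subtracted and dye-normalized by the scanner software, per the file headers. Cy5 held the sample on every array, per the labels, with no dye swap, so a dye effect that differs between RNAs is not removed. From the spot means and local backgrounds, limma 3.58.1 (R 4.3.3) computed normexp correction with an offset of 50 and loess within each array, giving log2 ratios. Control spots and 333 outlier spots were left out, and 43379 spots gave 41174 probes. Testing was limited to 19358 probes whose Cy5 signal passed the background flag on every array of some group. A group-means model over all 24 arrays was fitted with eBayes, and p-values were adjusted by Benjamini-Hochberg over all 19358 probes, with calls at 0.05. Probes named are the 8 most changed calls in each direction of a heat comparison. In the genotype, genotype by heat and time by heat comparisons they are the called members, up to 8 in each direction. The kinases, some of the called probe differences and some of the 3 most changed of each other list are also named. Further members were named after their values were seen. Members and lists were chosen with earlier results of these data known. Array names were updated for all 102 members, through accession, symbol or synonym. Tra2b probe 2 was the exception and took its name from the other probe with the same array name. The model was tested on simulated data. Alternatives were an offset of 10, median centring, the Feature Extraction ratio, no filter, slide or replicate number as a block, and each array left out. Same-numbered arrays correlated between -0.23 and 0.54 in their deviations, over 0.1 in 9 of 24 pairs, so numbers were not taken as pairs. The authors' value table, with 28139 probes, was compared with the scanner files and not used for tests; its unit was other values, found to be log10 ratios divided by the natural log of 2, with heat columns centred on controls and Cy5 over Cy3. Its column medians ran from -0.046 to 0.023. Replicate arrays correlated at 0.978 to 0.994, and the median Cy5 signal over background was 4.89 to 10.5. The number of arrays limits the precision.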

Additional observations from a re-analysis of the deposited data

Results flagged for a closer look

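The heat change of Hnrnpa3 probe 1 differed between the genotypes at 30 min by -0.45 ± 0.10 (CHIP null minus wildtype, SE; limma adjusted p = 0.049), with all 3 heated arrays below all 3 controls in each genotype. Between time labels in the CHIP null, the heat change differed by 0.65 ± 0.13 for Hnrnph2 probe 1 (limma adjusted p = 0.011), by 0.49 ± 0.12 for Hnrnpm probe 1 (adjusted p = 0.036 by limma) and by 0.39 ± 0.11 for Hnrnpa1 probe 1 (adjusted p = 0.049 by limma), each higher at 240 min. Time label and scan set cannot be told apart there.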

How the results depend on the processing

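Counts of called members are given in this order: heat in the wildtype at 30 and 240 min, heat in the CHIP null at 30 and 240 min, genotype in controls at 30 and 240 min, genotype in heated cells at 30 and 240 min. They were 10, 26, 32, 34, 36, 4, 24 and 5. With median centring the counts that moved by over 1.5 times were heat in the wildtype (2 and 12), heat in the CHIP null at 30 min (60), genotype in controls at 240 min (0) and genotype in heated cells (6 and 2). With slides as a block they were 2 and 2 in the wildtype, 18 in the CHIP null at 240 min, 21 and 0 in controls, and 7 and 0 in heated cells. Feature Extraction ratios gave 17 in the wildtype at 30 min, 22 in the CHIP null at 240 min, and 0 and 0 for genotype at 240 min, and an offset of 10 gave 1 and 0 there. Genotype by heat at 30 min was lost (0) with an offset of 10, median centring and no filter. Time by heat in the CHIP null gave 1 with an offset of 10, Feature Extraction ratios, no filter and slides as a block, and 0 with median centring. Genotype by time gave 9 and 2 (controls and heated cells) with median centring, and 7 and 4 with slides as a block. Probe differences numbered 2, 3 and 3 with an offset of 10 (wildtype at 30 and 240 min, CHIP null at 240 min), 2, 1 and 1 with Feature Extraction ratios and 1, 0 and 5 with slides as a block, 13 with no filter in the wildtype at 240 min, and 28 with median centring in the CHIP null at 30 min.

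Leaving out 1 array gave 5 to 10, 16 to 22, 27 to 29, 21 to 32, 28 to 33, 1 to 4, 13 to 25 and 0 to 13 calls in the order above. It gave 0 to 1 for genotype by heat at 30 min, 0 at 240 min, 0 to 1 for time by heat in the wildtype, 1 to 3 in the CHIP null, and 20 to 28 and 14 to 25 for genotype by time. Probe differences numbered 1 to 5 and 5 to 10 in the wildtype and 5 to 11 and 2 to 12 in the CHIP null. The cause was not tested. Of the 82 named calls, 10 reversed with median centring: in the CHIP null at 30 min Srsf5 probe 2 (-0.22), Srsf7 probe 1 (-0.29), Sugp2 probe 1 (-0.034) and Tra2b probe 2 (-0.0327), and at 240 min Clk1 probe 2 (-0.12), Clk4 probe 2 (-0.051), Hnrnpa1 probe 4 (-0.0573), Hnrnpc probe 1 (-0.0513) and Sugp2 probes 1 (-0.0515) and 2 (-0.033). Srsf9 reversed in heated cells at 30 min with slides as a block (-0.0721). Of the 82, 45 lost their call with median centring and 52 with slides as a block, the reversed ones included, 25 with Feature Extraction ratios, 13 with an offset of 10 and 2 without the filter. With the replicate number as a block, which did not pair the arrays, the counts were 10, 27, 33, 35, 35, 4, 24 and 5, and all 82 named calls kept their side of the threshold.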
